A study of Mus musculus with 6 samples.

Results

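The 10 genes described here encode NF-kB subunits, the inhibitor (IkB) proteins that bind them, and the feedback enzyme Tnfaip3. They were taken by symbol (Rela, Relb, Nfkb1, Nfkb2, Nfkbia, Nfkbib, Nfkbie, Nfkbiz, Tnfaip3 and Bcl3), and each of the 10 matched 1 of 27179 Entrez gene IDs in the count files. All 10 passed the filter on low counts, with 13202 genes in all. The cells were muscle satellite cells, the Pax7-expressing stem cells of skeletal muscle, sorted by flow cytometry from wild-type mice of the C57Bl/6N background. One group received a high-fat diet (3 libraries) and the other chow (3 libraries), and the series was set up to compare obese with lean mice. The age of the mice and the length of feeding are not given in the sources used here, and no label says whether the replicates of a diet came from separate animals, so that the p-values measure only how far these libraries vary, and that variation may be technical.

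NF-kB is a family of dimeric transcription factors. In resting cells the classical inhibitors Nfkbia, Nfkbib and Nfkbie hold the dimers in the cytoplasm, and signals from cytokine and Toll-like receptors cause their phosphorylation and destruction, which frees the dimers to enter the nucleus. Active NF-kB induces its own brakes, among them Nfkbia, Nfkbie and Tnfaip3, so that transcripts of these feedback genes are often read as a trace of recent pathway activity. In muscle the pathway is known for its part in inflammation, wasting and the control of myogenic differentiation.

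None of the 10 genes passed the test over all genes, and the genes without overlap between the diets were some of the IkB genes and Tnfaip3. Tnfaip3, Nfkbia, Nfkbie and Nfkbiz had lower values in each high-fat diet library than in any chow library, with means 1.92-fold, 1.78-fold, 1.78-fold and 1.60-fold lower. For the 4 subunit genes, for Nfkbib and for Bcl3 the diets overlapped. In bulk libraries fewer cells of a type and less RNA per cell cannot be told apart. By the quasi-likelihood test of edgeR, with Benjamini-Hochberg adjustment over all genes, 0 of 10 were called at an adjusted p under 0.05, against 0.258% of all tested genes (0.167% lower and 0.0909% higher). An unadjusted p under 0.05 was reached by 4 of 10, all lower with the high-fat diet, against 7.65% of tested genes in both directions and 3.95% in that direction. The diets did not overlap, with the high-fat diet lower, for 4 of 10, against 7.87% of tested genes, and in the other direction for 0 of 10, against 7.42% (15.3% in both). The log2 fold change was negative for 6 of 10 and for 50.5% of tested genes, with medians of -0.18 and -0.01. DESeq2 called 2 of 10 lower, Tnfaip3 and Nfkbiz (0.886% of all genes lower and 1.5% in both directions). Limma-voom called 1 lower, Nfkbia (0.417% and 0.75%), and edgeR without a low-count filter 2, Nfkbia and Tnfaip3 (0.468% and 0.839%).

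**Figure D1:**
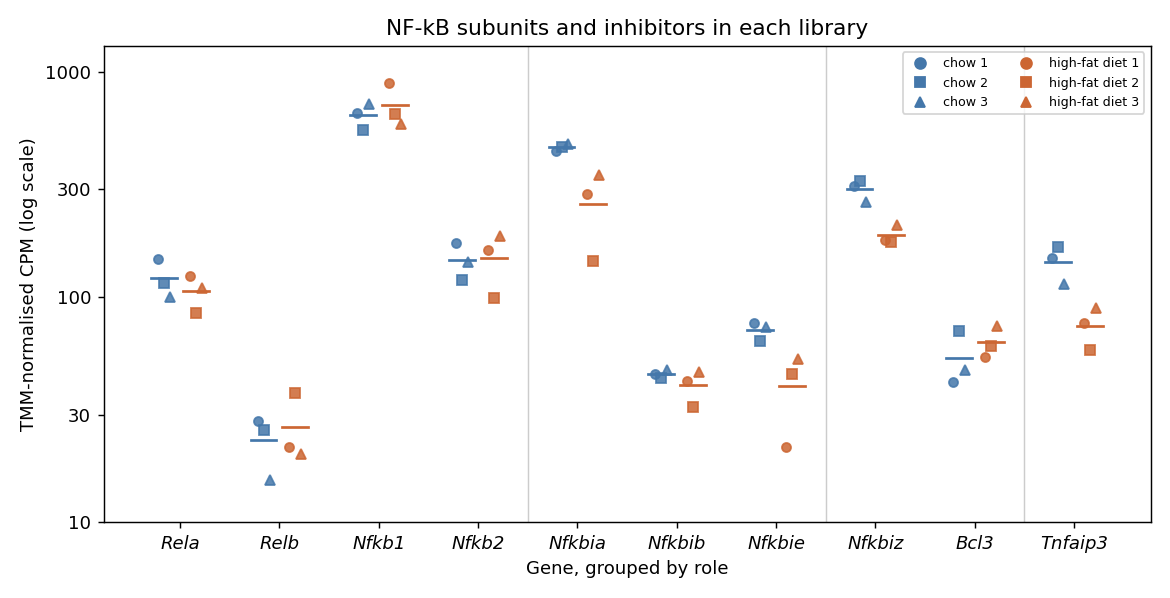
TMM-normalised CPM (log axis) of the 10 genes in each of 6 libraries, with chow in blue, high-fat diet in orange, a marker shape per replicate number and a bar at the mean of 3 libraries. The orange points of Nfkbia (145 to 346 CPM) lie below the blue points (444 to 479 CPM), while those of Nfkb1 (585 to 893 and 553 to 721 CPM) overlap.

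Gene starts were compared first at the sequence level, because the classical feedback genes are known for kappa B sites near the start of transcription. RefSeq promoter windows (GRCm38.p6) were matched for 7 of the 10 genes, in 10 windows. Relb, Nfkb1 and Nfkbiz had no window and were not searched. The 250 bases before the start were searched on both strands for the kappa B decamer, the consensus that NF-kB dimers bind, for TGANTCA (the AP-1 element) and for TGACGTCA (the cyclic AMP element). The kappa B decamer was present in 7.25% of all 32851 promoter windows and in 6 of the 10 windows here, TGANTCA in 6.75% and 3 of 10, and TGACGTCA in 1.55% and 0 of 10. These windows are not independent. Of the 6 with the decamer 3 belong to Nfkb2, and some of those share bases. The genes were chosen as NF-kB genes, so the counts are a description and not a test. The TGANTCA matches lay in 1 window each of Tnfaip3, Nfkbie and Nfkb2. No kappa B match overlapped either of the other motifs. Shown are windows of 3 genes with lower values in each high-fat diet library. These windows, in which capitals mark kappa B matches only, include those of Tnfaip3 and Nfkbie with a TGANTCA match. They lie at chr12:55492648-55492897 (minus strand), chr10:19015411-19015660 (minus strand) and chr17:45555450-45555699 (plus strand).
Nfkbia: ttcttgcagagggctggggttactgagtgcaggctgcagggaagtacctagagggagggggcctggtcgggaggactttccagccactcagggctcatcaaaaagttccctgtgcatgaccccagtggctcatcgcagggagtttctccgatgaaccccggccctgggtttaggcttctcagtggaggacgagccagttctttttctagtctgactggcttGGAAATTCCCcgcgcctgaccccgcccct
Tnfaip3: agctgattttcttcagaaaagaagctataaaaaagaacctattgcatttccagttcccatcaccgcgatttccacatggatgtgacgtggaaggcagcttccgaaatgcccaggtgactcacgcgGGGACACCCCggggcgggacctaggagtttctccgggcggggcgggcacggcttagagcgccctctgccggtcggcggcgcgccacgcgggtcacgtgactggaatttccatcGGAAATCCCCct
Nfkbie: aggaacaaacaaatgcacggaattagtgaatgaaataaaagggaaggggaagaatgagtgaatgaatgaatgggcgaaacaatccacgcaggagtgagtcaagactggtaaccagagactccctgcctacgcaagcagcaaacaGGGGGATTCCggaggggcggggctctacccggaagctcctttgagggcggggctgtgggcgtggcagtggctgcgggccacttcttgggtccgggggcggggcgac
Nfkbia held 1 match, 29 to 20 bases before the start. Tnfaip3 held 2 in this window, 125 to 116 and 12 to 3 bases before the start, and 0 in a window at an internal start. Nfkbie held 1 match, 106 to 97 bases before the start, and Rela, Nfkbib and Bcl3 held 0. Nfkb2 had matches in all 3 of its windows, 3 (of which a pair overlap), 1 and 1, and its levels overlapped between the diets. All windows of Nfkb2 lie at internal starts, inside its span of 46300994 to 46312400. The bases before its outermost start were not searched. A match is a description of the letters and not evidence of binding.

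Among the inhibitors that hold NF-kB in the cytoplasm, Nfkbia, which encodes IkB alpha, was the most abundant. Nfkbia (Entrez 18035, chromosome 12, 55489409 to 55492647, minus strand, GRCm38) was at 287, 145 and 346 CPM in high-fat diet libraries 1, 2 and 3 and at 444, 461 and 479 CPM in chow libraries 1, 2 and 3. The chow libraries lay close together and the high-fat diet libraries far apart, with coefficients of variation of 3.81% and 39.9% and library 2 lowest. The mean was 259.5 ± 104 CPM on high-fat diet against 462 ± 17.6 CPM on chow (SD, n = 3 each), a log2 fold change of -0.83 (SE 0.25, 95% interval -1.37 to -0.29, edgeR unadjusted p = 0.00531, adjusted p = 0.309). Without high-fat diet library 2 the log2 fold change was -0.55 (edgeR adjusted p = 0.588). It was called with limma-voom (adjusted p = 0.0326) and without a low-count filter in edgeR (adjusted p = 0.00597).

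Nfkbie, which encodes IkB epsilon, a later-acting feedback inhibitor, had the widest relative spread among the high-fat diet libraries, a coefficient of variation of 41.0%. Nfkbie (Entrez 18037, chromosome 17, 45555700 to 45563169, plus strand) was at 21.6, 45.5 and 53.1 CPM in the high-fat diet libraries and at 76.7, 63.9 and 73.2 CPM in the chow libraries. Library 1 was the lowest of the high-fat diet libraries, and the diets did not overlap. The log2 fold change was -0.83 (SE 0.34, 95% interval -1.56 to -0.10, edgeR adjusted p = 0.558), with an unadjusted p of 0.0288 in the same edgeR fit. Without high-fat diet library 1 it was -0.52, and the unadjusted p exceeded 0.05 without that library (0.0957 in edgeR), without chow library 1 (0.0720) or without chow library 3 (0.0590).

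Nfkbib encodes IkB beta, an inhibitor that is not known as a rapid NF-kB target. It differed little between the diets. Nfkbib (Entrez 18036, chromosome 7, 28758251 to 28766644, minus strand) was at 42.4, 32.6 and 46.4 CPM in the high-fat diet libraries and at 45.3, 43.7 and 47.2 CPM in the chow libraries. Its log2 fold change was -0.17, and the 95% interval of -0.84 to 0.51 includes changes as large as that of Nfkbia (edgeR adjusted p = 0.999). Sirt2 and Ccer2 lie partly over Nfkbib on the other strand, and since the strand setting of the counting is not given in the sources used here, reads of the overlap cannot be assigned.

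Tnfaip3 encodes A20, a ubiquitin-editing enzyme that shuts down signalling upstream of the IkB kinases, and it showed the largest difference of the 10 genes. Tnfaip3 (Entrez 21929, chromosome 10, 19000910 to 19015410, minus strand) was at 76.3, 57.9 and 89.2 CPM in the high-fat diet libraries and at 149, 167 and 115 CPM in the chow libraries. As for Nfkbia, high-fat diet library 2 was the lowest, and the diets did not overlap. The mean was 74.5 ± 15.7 CPM against 143 ± 26.5 CPM (SD, n = 3 each), a log2 fold change of -0.94 (SE 0.24, 95% interval -1.46 to -0.43, edgeR unadjusted p = 0.00155, adjusted p = 0.187). It was called by DESeq2 (adjusted p = 0.0346) and without a low-count filter in edgeR (adjusted p = 0.0358).

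The nuclear IkB proteins act on NF-kB dimers already bound to DNA, and of the 2 genes measured here only Nfkbiz had no overlap between the diets. Nfkbiz encodes IkB zeta, which is needed for induction of a subset of secondary response genes such as Il6. Nfkbiz (Entrez 80859, chromosome 16, 55811375 to 55838954, minus strand) was at 179, 176 and 208 CPM in the high-fat diet libraries and at 310.5, 327 and 265 CPM in the chow libraries. Both groups were narrow and did not overlap. The log2 fold change was -0.68 (SE 0.17, 95% interval -1.05 to -0.31, edgeR unadjusted p = 0.00157, adjusted p = 0.187), and DESeq2 called it (adjusted p = 0.0173). Bcl3, which acts as a coactivator with p50 or p52 homodimers, overlapped between the diets. Bcl3 (Entrez 12051, chromosome 7, 19808462 to 19822824, minus strand) was at 54.4, 60.7 and 74.2 CPM in the high-fat diet libraries and at 42.0, 70.8 and 47.3 CPM in the chow libraries, a log2 fold change of 0.24 (95% interval -0.40 to 0.88, edgeR adjusted p = 0.978). Chow library 2 lay among the high-fat diet libraries, and the antisense genes Gm16174 and Gm16175 overlap Bcl3.

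The 4 subunit genes overlapped between the diets. Rela encodes p65, the transactivating partner of the classical dimer. Rela (Entrez 19697, chromosome 19, 5637442 to 5648134, plus strand) was at 124, 84.5 and 109 CPM in the high-fat diet libraries and at 147, 115 and 100.1 CPM in the chow libraries, a log2 fold change of -0.19 (95% interval -0.69 to 0.31). Nfkb1 encodes p105, which is processed to p50 and in its long form also acts as an inhibitor. Nfkb1 (Entrez 18033, chromosome 3, 135584655 to 135691969, minus strand) was at 893, 649 and 585 CPM in the high-fat diet libraries and at 658, 553 and 721 CPM in the chow libraries, a log2 fold change of 0.14 (95% interval -0.25 to 0.53). High-fat diet library 1 was the highest of the 6 libraries, and without it the log2 fold change was -0.05. Nfkb1 overlaps Gm43430 on the same strand, so that its reads are uncertain there.

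Nfkb2 and Relb form the dimer of the alternative pathway, in which p100 is processed to p52. Nfkb2 (Entrez 18034, chromosome 19, 46300994 to 46312400, plus strand) was at 162, 99.2 and 186 CPM in the high-fat diet libraries and at 173, 119 and 144 CPM in the chow libraries, a log2 fold change of 0.04 (95% interval -0.50 to 0.57). It overlaps Psd and AC114539.1 on the other strand. Relb (Entrez 19698, chromosome 7, 19606217 to 19629438, minus strand) was at 21.6, 37.5 and 20.1 CPM in the high-fat diet libraries and at 28.3, 25.8 and 15.4 CPM in the chow libraries, a log2 fold change of 0.19 (95% interval -0.79 to 1.16). High-fat diet library 2 was the highest for Relb and the lowest for Nfkb2 and Rela. The edgeR adjusted p of the 4 subunit genes lay between 0.978 and 1.00. The sign of the log2 fold change of Nfkb1, Nfkb2 and Relb changed when single libraries were left out.

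**Figure D2:**
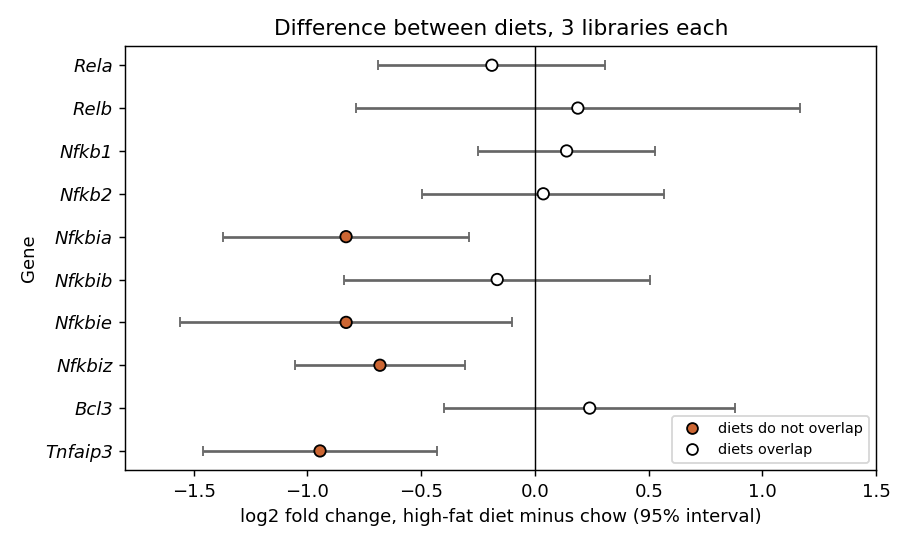
Log2 fold change of each gene (high-fat diet minus chow, 3 libraries each) with its 95% interval from the edgeR fit, filled where the libraries of the diets do not overlap. The intervals of Nfkbia, Nfkbie, Nfkbiz and Tnfaip3 lie below 0 before adjustment over all genes, and those of the other 6 genes include 0.

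Levels between genes were compared per length, as CPM divided by the length in kilobases of the longest RefSeq-paired transcript (RPKM). In chow, Nfkbia was the highest at 292 ± 11.1 RPKM, followed by Nfkb1 at 156 ± 20.7 RPKM and Nfkbiz at 73.0 ± 7.81 RPKM (SD, n = 3 each), and neighbours down to Nfkb2 did not overlap. Nfkb2 (46.2 ± 8.54 RPKM), Rela (44.5 ± 8.84), Tnfaip3 (32.4 ± 5.98), Nfkbie (29.3 ± 2.71), Bcl3 (28.9 ± 8.29) and Nfkbib (22.0 ± 0.859) formed a run in which each neighbour overlapped the next, and Relb was lowest at 10.5 ± 3.07 RPKM, with no overlap with Nfkbib. With the high-fat diet Nfkb1 (172 ± 39.6 RPKM) and Nfkbia (164 ± 65.6 RPKM) overlapped at the top, apart from a run of Nfkb2 (47.4 ± 14.2 RPKM), Nfkbiz (45.6 ± 4.34), Rela (39.0 ± 7.34) and Bcl3 (34.1 ± 5.47) whose neighbours overlapped. Nfkbib (19.6 ± 3.46 RPKM) lay below Bcl3 without overlap. Tnfaip3 and Nfkbie were at rank 8 and 9 of 10 there (16.8 ± 3.56 and 16.5 ± 6.75 RPKM), against rank 6 and 7 in chow. Relb was at rank 10 on both diets (11.9 ± 4.36 RPKM on high-fat diet).

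Other genes of the pathway were taken from a list of ligands, receptors, adaptors and kinases, and further subunits and brakes. Of 79 genes 61 were tested, and edgeR called 0, limma-voom 1 (0.75% of all tested genes) and DESeq2 2 (1.5%). An unadjusted p under 0.05 was reached by 2 genes that were higher on high-fat diet (3.7% of all tested genes were) and 3 that were lower (3.95%). The diets did not overlap for 4 lower genes (7.87% of all tested genes) and 4 higher genes (7.42%), and the median log2 fold change was -0.07. Ligands were nearly absent. Of 10, 6 were at 0 in every library (Lta, Il1a, Il1rn, Tnfsf11, Tnfsf14 and Cd40lg), which allows up to 3 counts, or 0.165 to 0.201 CPM of the total per library, and the most abundant, Tnfsf12 (TWEAK), was between 0.715 and 4.16 CPM on high-fat diet and between 2.30 and 5.65 CPM on chow.

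Receptors were well represented, and Tnfrsf12a (Fn14), which binds Tnfsf12, was the most abundant, at 191 ± 22.2 CPM on high-fat diet, against 193 ± 51.4 CPM on chow (SD, n = 3 each). Tnfrsf21 (death receptor 6) was higher in each high-fat diet library (121, 110.3 and 97.4 CPM) than in the chow libraries (65.6, 25.3 and 34.3 CPM). Its log2 fold change was 1.39 (SE 0.33, edgeR adjusted p = 0.150), and it passed with DESeq2 (adjusted p = 0.0128), with limma-voom (adjusted p = 0.0203) and without chow library 1 (edgeR adjusted p = 0.0308). Tlr6, a Toll-like receptor, was at 0.130, 0.640 and 0.701 CPM in the high-fat diet libraries and at 9.61, 7.23 and 13.1 CPM with chow (edgeR adjusted p = 0.300), and DESeq2 called it (adjusted p = 0.00439). The value of high-fat diet library 1 lies under the floor of 3 counts.

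Among 30 tested adaptors and kinases the most abundant was Ripk1, a kinase of the TNF receptor complex, at 276 ± 31.1 CPM on high-fat diet, against 336 ± 29.1 CPM on chow (log2 fold change -0.28, 95% interval -0.64 to 0.08). Ticam1 (TRIF), the adaptor of Tlr3 and Tlr4, was at 23.2, 25.1 and 22.6 CPM against 5.84, 10.6 and 7.98 CPM in chow (log2 fold change 1.54, edgeR adjusted p = 0.442). Birc2 (cIAP1), a ubiquitin ligase of the receptor complexes, was at 60.0, 32.7 and 54.5 CPM against 106, 64.0 and 77.2 CPM in chow (log2 fold change -0.75, edgeR adjusted p = 0.564). The diets did not overlap for either gene. Among the further brakes, Itch, a ubiquitin ligase that works with A20, was also lower in each high-fat diet library, at 37.7, 40.3 and 45.8 CPM against 66.2, 71.0 and 88.6 CPM in chow (log2 fold change -0.87, SE 0.27, edgeR adjusted p = 0.336). Tax1bp1, an adaptor of A20 and the most abundant of these, was at 224 ± 33.8 CPM on high-fat diet, against 226 ± 37.5 CPM on chow. For Tnfrsf12a and Tax1bp1 the sign of the small log2 fold change (-0.02 and -0.01) changed under some of the alternatives tried.

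Genes that NF-kB is known to induce lay on both sides of 0. Of 39 listed 31 were tested, 17 with a negative and 14 with a positive log2 fold change (median -0.18), and edgeR called 0, limma-voom 0 (0.75% of all tested genes) and DESeq2 1 lower (0.886%). At an unadjusted p under 0.05 were 3 lower genes, Irf1, Plau and Cxcl10 (3.95% of all tested genes were lower), and 1 higher gene, Ccnd1 (3.7%). The diets did not overlap for 5 lower genes, these 3 with Ier3 and Gadd45b (7.87% of all tested genes), and for 2 higher genes, Ccnd1 and Lif (7.42%). Ier3, Gadd45b and Lif fall outside the rule for naming and were chosen after their values were seen. Irf1, a transcription factor that interferon gamma also induces, was at 53.1, 43.9 and 58.4 CPM against 85.3, 108 and 133 CPM in chow (log2 fold change -1.07, edgeR adjusted p = 0.163), and DESeq2 called it (adjusted p = 0.0223). Plau (urokinase) was at 164, 104 and 136 CPM against 195, 289 and 215 CPM (log2 fold change -0.79, edgeR adjusted p = 0.266). The chemokine gene Cxcl10 was at 3.58, 11.7 and 4.80 CPM against 25.4, 18.4 and 39.2 CPM (log2 fold change -2.05, edgeR adjusted p = 0.318).

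In contrast to these, Ccnd1 (cyclin D1), which many mitogenic signals also induce, was at 182, 105 and 104 CPM against 72.5, 84.2 and 42.3 CPM in chow (log2 fold change 0.98, edgeR adjusted p = 0.322). Its log2 fold change was 0.43 without high-fat diet library 1 and chow library 3. The most abundant target gene was Sdc4 (syndecan 4), which is also a satellite cell marker, at 1671 ± 282 CPM on high-fat diet, against 1996 ± 495 CPM on chow (SD, n = 3 each, edgeR adjusted p = 0.876).

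**Figure D3:**
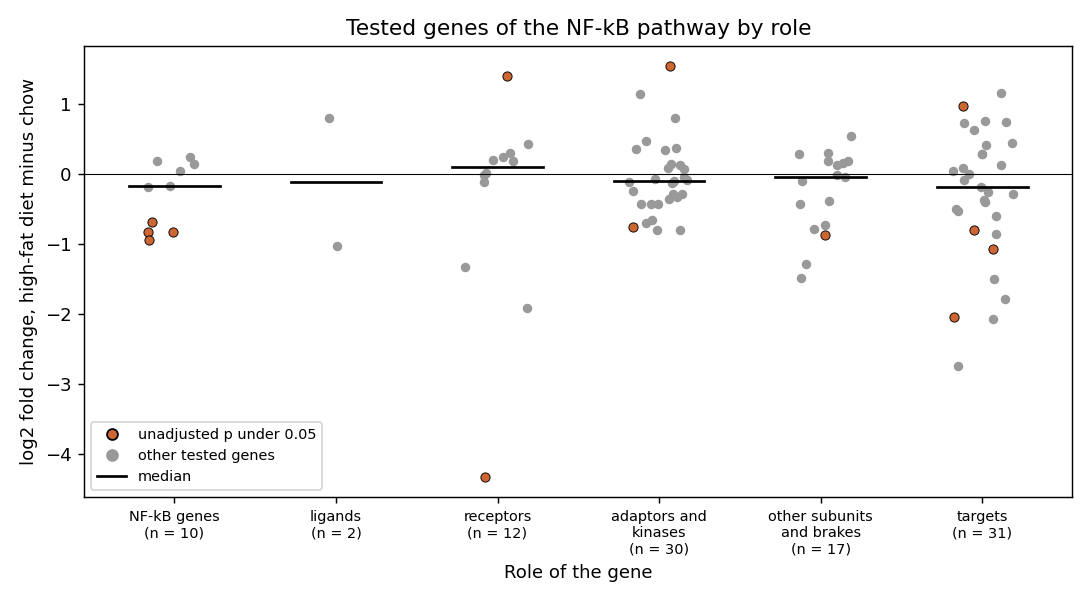
Log2 fold change (high-fat diet minus chow) of the tested genes by role, with a bar at the median, filled orange where the unadjusted p was under 0.05. The 4 orange points among the 10 NF-kB genes are all negative, whereas orange points of the pathway genes lie on both sides of 0.

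A list of 29 genes held 24 immediate early genes, which cells induce within minutes of many stimuli, and 5 heat-shock genes. Of the 24 immediate early genes 8 fell in edgeR over all genes (0.167% of all tested genes were called lower) and 0 rose. The count was between 3 and 10 with 1 library left out and 0 without high-fat diet library 1 and chow library 3, in fits with fewer libraries. The diets did not overlap, with the high-fat diet lower, for 19 of 24 (7.87% of all tested genes), 1 of 24 had a positive log2 fold change, and the median was -0.92. The 24 genes, led by Egr1, summed to 7540 to 12491 CPM in the high-fat diet libraries and 19544 to 20801 CPM in the chow libraries, without overlap. Of the 5 heat-shock genes edgeR called 0, although 5 of 5 had a negative log2 fold change, with a median of -1.26. The diets did not overlap, with the high-fat diet lower, for 3 of these 5 (7.87% of all tested genes). The sum of the 5, led by Hspa1b, was 4064 to 8611 CPM against 8930 to 16317 CPM on chow. Hspa1b and its near-identical copy Hspa1a are uncertain. The part of this shift in the values of Nfkbia, Nfkbie, Nfkbiz and Tnfaip3 was not tested. Of the genes named by rule, Fos and Egr1 had log2 fold changes of -1.49 and -1.33 (edgeR adjusted p = 0.00947 and 0.00474), the stress factor gene Atf3 one of -1.67 (0.0224, edgeR adjusted), Junb one of -1.11 (0.0394) and the mRNA decay factor gene Zfp36 one of -1.27 (0.0102). With 1 library left out, Egr1 passed in 6 of 6 edgeR fits. Fos did not pass without chow library 3, nor Zfp36 without any 1 of high-fat diet library 2 and chow libraries 2 and 3 (edgeR adjusted p up to 0.0641 and 0.0869). Atf3 passed without high-fat diet library 1 or 3 and Junb without high-fat diet library 3, and in the other fits their edgeR adjusted p reached 0.127 and 0.184. Without high-fat diet library 1 and chow library 3 together none of these 5 passed in edgeR (adjusted p from 0.141 to 0.444). With total counts as the scaling Junb did not pass (edgeR adjusted p = 0.0573).

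Nfkbia, Fos, Egr1 and Junb shared their lowest library, high-fat diet library 2, with log2 CPM minus the gene's own mean of -1.21, -1.41, -1.07 and -1.03. That library was also the lowest for Tnfaip3, Nfkbiz, Nfkbib, Nfkb2 and Rela (-0.81, -0.43, -0.39, -0.53 and -0.40), so it was not particular to Nfkbia. Nfkbie shared its lowest library with Atf3 and Zfp36, high-fat diet library 1, at -1.25, -1.63 and -0.90 on the same scale. The genes with the pattern most like Nfkbia, by root-mean-square distance of centred log2 CPM over 6 libraries among 7284 genes of at least 10 CPM, were Klf4, Id3 and Prkcq, at distances of 0.0639, 0.137 and 0.168, and Klf4 is on the immediate early list. For Tnfaip3, Ebf3 and Cherp were among the closest, at 0.147 and 0.162.

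**Figure D4:**
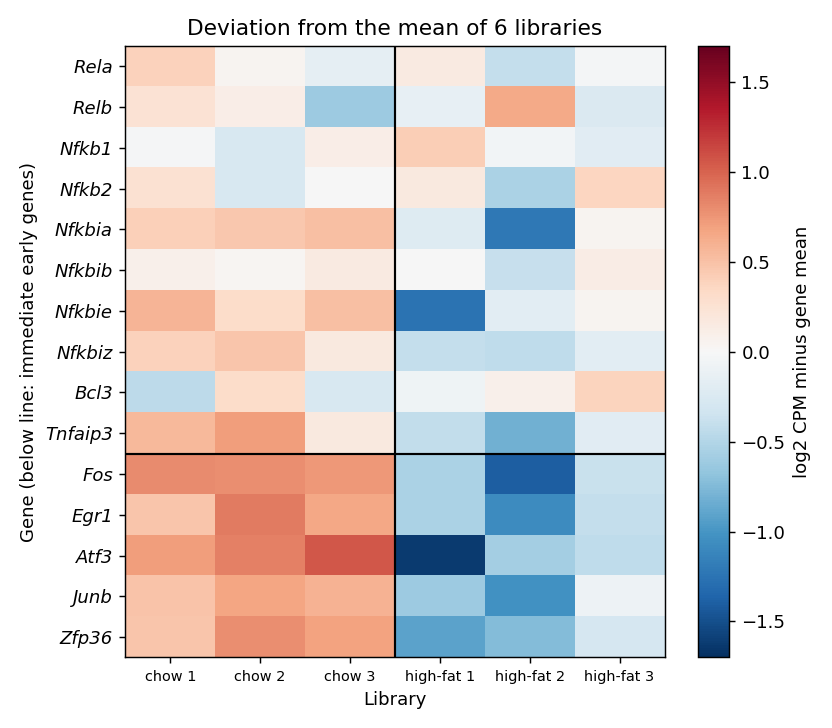
Log2 CPM minus the gene's mean over 6 libraries for the 10 NF-kB genes and, under the line, 5 immediate early genes, with the chow libraries at left. Nfkbia is lowest in high-fat diet library 2 (-1.21), as are Tnfaip3, Nfkbiz, Nfkbib, Nfkb2, Rela, Fos, Egr1 and Junb. Nfkbie is lowest in high-fat diet library 1 (-1.25), as are Atf3 and Zfp36.

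The remaining facts of the libraries bear on all these values. Total counts ran from 14930394 to 18217818 per library, and mitochondrial transcripts took 7.72% to 10.5% of counts on high-fat diet and 8.13% to 8.46% on chow. Earlier results of these data set high-fat diet library 1 and chow library 3 apart from the other libraries, and without both the log2 fold changes of Nfkbia, Nfkbie, Nfkbiz and Tnfaip3 were -0.87, -0.50, -0.72 and -1.09 (edgeR adjusted p 0.652, 0.845, 0.465 and 0.438). Satellite cell markers were present, 10 of 10 tested, 6 with a positive and 4 with a negative log2 fold change (median 0.09), with a sum of 4256 to 5290 CPM on high-fat diet, against 4383 to 5300 CPM on chow. The diets did not overlap, with an unadjusted p under 0.05, for 2 markers that were lower on high-fat diet (Pax7 and Fgfr4) and 2 that were higher (Itga7 and Chrdl2). Of all tested genes 7.87% were lower and 7.42% higher without overlap. An unadjusted edgeR p under 0.05 was reached by 3.95% and 3.7% in these directions. Pax7, the defining marker, was at 171, 247 and 283 CPM on high-fat diet and at 370.4, 405 and 429.7 CPM on chow, without overlap (log2 fold change -0.78, edgeR adjusted p = 0.180). Its part in the values of Nfkbia, Nfkbie, Nfkbiz and Tnfaip3 was not tested. Of 14 immune cell markers 4 were tested, Adgre1, Tyrobp, Cd3e and Ly6g were at 0 in every library, Ptprc reached at most 0.377 CPM, and the list summed to 11.3 to 28.5 CPM on high-fat diet, against 19.5 to 55.4 CPM on chow, led by Cd68. Summed levels of endothelial (243 to 406 and 272 to 376 CPM), mural (557 to 794 and 712 to 826 CPM), fibro-adipogenic progenitor (1274 to 1616 and 1188 to 1427 CPM) and myofibre markers (93.7 to 206 and 123 to 154 CPM) overlapped between the high-fat diet and chow, led by Tek, Notch3, Gsn and Ttn. Single markers did not all overlap, as Kdr (endothelial) was higher and Tnnt3 (myofibre) lower in each high-fat diet library. Fgfr4, Itga7, Chrdl2, Kdr and Tnnt3 were picked with their values known, outside the rule for naming. The log2 fold change was negative for 7 of 8 mural markers (median -0.46) and positive for 8 of 10 fibro-adipogenic progenitor markers (median 0.21). In edgeR 0 genes of the marker lists were called (0.258% of all tested genes). An unadjusted p under 0.05 was reached by 3 higher and 2 lower marker genes (3.7% and 3.95% of all tested genes). The part of these cell types in the values of Nfkbia, Nfkbie, Nfkbiz and Tnfaip3 was not tested.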

How the data were processed

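RNA-seq was measured in 6 libraries of sorted satellite cells (at least 50000 cells each, RNA integrity numbers 8.5 to 9.4, ribosomal RNA depleted, 75-bp single reads, per the labels' protocols). The deposited values were raw read counts per Entrez gene ID. Bowtie2, featureCounts, GRCm38 and mm10 are named in the submitters' processing notes, while versions, annotation, strand setting and handling of multiply mapped reads are not given in the sources used here. Of 27179 IDs 25275 matched a symbol in RefSeq GRCm38.p6 and 18 more in GENCODE M21. Total counts of 14930394 to 18217818 make 3 counts worth 0.165 to 0.201 CPM. Floors cover counting error only, as reads without molecular identifiers are not independent molecules.

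Counts were analysed with edgeR 4.0.16 in R 4.3.3: filterByExpr (minimum count 10), TMM scaling, glmQLFit and glmQLFTest with diet as the only term, two-sided, p adjusted over all 13202 tested genes and called under 0.05. Standard errors are the size of the log2 fold change over the square root of F, and 95% intervals use the fit's total degrees of freedom. CPM are counts scaled to a standard library size after TMM, given as mean ± SD. Likeness of patterns was computed on log2 CPM (prior count 2). The test was also run on simulated counts, and the outcome is not reported here. The common dispersion of the edgeR fit was 0.682, a coefficient of variation between libraries of 82.6%. Alternatives were 3 scalings, 2 filters, DESeq2 1.42.0 on the same genes, limma-voom (limma 3.58.1), robust dispersions, a threshold of 0.1, a block for the replicate number, each library left out, and high-fat diet library 1 with chow library 3 left out.

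The 10 genes and all lists were chosen with earlier results of these data known. Named were the 10 genes, pathway and target genes with an unadjusted p under 0.05 (at most 12), the most abundant gene of each role and marker list, 5 immediate early genes, and the 3 genes most like Nfkbia and most like the gene with the smallest p, though some items are not reported here. All 6 libraries differed by more than sampling noise (lowest chi-square per degree of freedom 60.6) and were kept.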

Additional observations from a re-analysis of the deposited data

How the results depend on the processing

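The direction of Nfkbia, Nfkbib, Nfkbie, Nfkbiz, Tnfaip3, Bcl3 and Rela held in all 16 other fits. Over these fits the log2 fold change ran from -1.09 to -0.55 for Nfkbia, from -1.08 to -0.50 for Nfkbie, from -0.76 to -0.62 for Nfkbiz and from -1.09 to -0.80 for Tnfaip3, and the edgeR adjusted p with 1 library left out from 0.115 to 0.630, 0.388 to 0.845, 0.172 to 0.566 and 0.152 to 0.586. The count of NF-kB genes called, 0, was 2 without a low-count filter, 2 with DESeq2 and 1 with limma-voom, and 0 in each fit with 1 library left out. For the pathway genes, 0, it was 1, 2 and 1 under the same settings and from 0 to 1 with 1 library left out, and for the targets, 0, it was 3 without a filter and 1 with DESeq2. Over all genes the 34 calls became 163, 198 and 99 under those settings, 1 without high-fat diet library 1 and chow library 3, and from 9 to 44 with 1 library left out. The cause was not tested, and fits with 1 library left out hold fewer samples.

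Signs changed where differences were near 0. Over the fits with 1 library left out, Relb ran from -0.15 to 0.36, Nfkb1 from -0.050 to 0.26, Nfkb2 from -0.15 to 0.26, Tnfrsf12a from -0.15 to 0.22 and Tax1bp1 from -0.14 to 0.11. Relb was at -0.15 without high-fat diet library 2 and -0.03 without chow library 3, and Nfkb1 at -0.050 without high-fat diet library 1. Nfkb2 was at -0.02 without high-fat diet library 1, -0.15 without high-fat diet library 3, -0.09 without chow library 2 and -0.03 without high-fat diet library 1 and chow library 3. Tnfrsf12a was at 0.0068 with limma-voom, 0.0072 with the block, 0.08 without high-fat diet library 3 and 0.22 without chow library 1. Tax1bp1 was at 0.0042 without a filter, 0.01 without high-fat diet library 1, 0.09 without high-fat diet library 3 and 0.11 without chow library 2.

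The sample titles give libraries of the diets the same replicate numbers and state no pairing. Deviations from the group means correlated at 0.0245, 0.0346 and -0.0261 between libraries of number 1, 2 and 3. With so few libraries these values cannot decide whether same-numbered libraries shared a batch. With the replicate number as a block 45 genes were called in place of 34, and 0 of the 10 NF-kB genes, 0 pathway genes and 0 targets. Not every library correlated best with its own number, and this is a hint from the data, not from the design. The 95% intervals of Nfkbib, Bcl3 and the 4 subunits include 0, which does not show that their levels were alike.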

Other observations

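Ratios of reads between 2 genes of the same library do not depend on how libraries are scaled, and they were computed after the values were seen. Per read of Rela, Tnfaip3 had 0.616, 0.685 and 0.815 reads in the high-fat diet libraries and 1.01, 1.44 and 1.14 in the chow libraries, and Nfkbiz had 1.44, 2.08 and 1.90 against 2.11, 2.83 and 2.64. These ratios did not overlap between the diets, although Nfkbiz did so narrowly. Nfkbia had 2.32, 1.72 and 3.16 reads per read of Rela against 3.02, 4.0 and 4.79, and Nfkbie 0.174, 0.539 and 0.485 against 0.521, 0.554 and 0.731, and both overlapped. Per read of Nfkb1, all 4 genes had lower ratios in each high-fat diet library than in any chow library. Means were 0.379 ± 0.191 against 0.725 ± 0.0949 for Nfkbia and 0.109 ± 0.0378 against 0.229 ± 0.0713 for Tnfaip3 (SD, n = 3 each). The gap was narrow for Nfkbiz (0.356 in high-fat diet library 3, 0.367 in chow library 3) and for Tnfaip3 (0.153 and 0.159 in the same libraries). For Nfkbia and Nfkbie the lack of overlap thus held with Nfkb1 and not with Rela as the denominator. The 4 genes were those without overlap in CPM, so their ratios are not separate support. The share of all genes with such ratios was not computed. Ratios of Nfkbib and Bcl3 to either subunit overlapped.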
